A study of Mus musculus with 16 samples.

Results

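The circadian clock genes described here are Arntl, Clock, Per2, Per3, Cry1, Cry2, Dbp, Tef, Nr1d1 and Nr1d2. They form a list of names with no threshold on measured values, and all 10 were present among the 54532 genes of the count table. RNA-Seq was performed on the whole aorta of male C57BL/6J mice, with 1 library per mouse and 4 mice in each of 4 groups. Mice were 12 weeks old at surgery, recovered for 2 weeks and were then fed their diet for 4 weeks according to the methods, or for 30 days according to the labels. Sham mice, which kept their kidneys, and 5/6 Nx-HPi-Lp mice, which underwent 5/6 nephrectomy (Nx) as a model of CKD, received the same diet with 2% phosphorus and 2.5% protein (HPi-Lp). The 5/6 Nx-HPi-Hp mice received 2% phosphorus and 18% protein, and 0.3% phosphorus with 2.5% protein was fed to the 5/6 Nx-LPi-Lp mice. The study set the 5/6 Nx-HPi-Lp group, in which it described medial artery calcification, against the other groups as controls that each differ in a single variable. The hour at which each aorta was collected and the light cycle of the animals are not given in the sources used here, so that no value below could be set against them.

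The molecular clock is a feedback loop that most cells of the body run, including the smooth muscle and endothelial cells of the artery wall. BMAL1 (the product of Arntl) and its partner CLOCK, or the related NPAS2, bind E-box sequences and turn on the Per and Cry genes, whose proteins then repress them. Another arm runs through the nuclear receptors REV-ERBα and REV-ERBβ (Nr1d1 and Nr1d2), which repress Arntl, and the PAR bZIP factors DBP and TEF carry the rhythm to output genes through D-box sequences. Transcripts of these genes swing through the day in many tissues, with Arntl high when Dbp and the Per genes are low.

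The sequences through which these factors are known to act were looked for in the promoters of the clock genes, because they tie these factors to their targets. RefSeq windows on the GRCm38.p6 assembly reach from 250 bases before to 50 bases after each annotated start, and 13 of them belonged to 9 of the 10 genes. The 3 kinds of sequence below were searched on both strands, and the letters of none of them contain those of another. The E-box CACGTG was found in 7.15% of all 32851 windows. The D-box TTATGTAA or TTACGTAA was found in 1.06% of them, and the REV-ERB/ROR element TAGGTCA or TGGGTCA in 6.45%. Among the clock genes, an E-box stood in Cry1 and in both windows of Tef, a pair of D-boxes in Per3 and a REV-ERB/ROR element in Arntl, while Clock, Cry2, Dbp, Nr1d1 and Nr1d2 held none of these letters in their windows. The sites in Per3 and Cry1 lie upstream of the gene span given with the counts, and those in Tef and Arntl lie inside it. The matches are shown 5′ to 3′ in the direction of the gene, 30 bases each, with the matched letters in capitals.
Per3 (chr4:151044852-151044881, minus strand, 205 bases before the start): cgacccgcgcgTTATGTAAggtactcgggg
Per3 (chr4:151044805-151044834, minus strand, 158 bases before the start): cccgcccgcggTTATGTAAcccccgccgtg
Cry1 (chr10:85185097-85185126, minus strand, 60 bases before the start): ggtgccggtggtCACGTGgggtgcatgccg
Tef (chr15:81802534-81802563, plus strand, 127 bases before the first start): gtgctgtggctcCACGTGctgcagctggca
Tef (chr15:81811264-81811293, plus strand, 138 bases before the second start): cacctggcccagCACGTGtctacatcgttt
Arntl (chr7:113207530-113207559, plus strand, match 31 bases into the transcript from the second start): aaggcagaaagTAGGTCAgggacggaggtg

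Library totals ranged from 13659525 to 57276915 counts, and the clock genes had between 10 counts (Arntl in 5/6 Nx-LPi-Lp replicate 1) and 11900 counts (Tef in 5/6 Nx-HPi-Lp replicate 2). Levels are given below as CPM (counts scaled to the size of each library after TMM normalization), which allow a comparison between libraries but not between genes. The cell make-up of the libraries also differed. Summed CPM of 7 smooth muscle markers, all detected in every library, ranged from 21707 to 25826 in Sham mice, 2227 to 5046 in 5/6 Nx-HPi-Lp mice, 6548 to 23251 in 5/6 Nx-HPi-Hp mice and 7606 to 17704 in 5/6 Nx-LPi-Lp mice. The sum of 6 adipocyte markers ranged from 231 to 673, 2592 to 8016, 716 to 7414 and 1046 to 2945 in the same order. That of 6 macrophage markers ranged from 190 to 294, 622 to 2191, 258 to 515 and 182 to 311, and that of 6 fibroblast markers from 1783 to 2764, 2834 to 12124, 1026 to 2795 and 1109 to 1470. Mitochondrially encoded genes took 4.18 to 6.34% of counts in Sham mice, 19.3 to 27.1% in 5/6 Nx-HPi-Lp mice, 9.50 to 29.0% in 5/6 Nx-HPi-Hp mice and 14.2 to 21.1% in 5/6 Nx-LPi-Lp mice. In bulk tissue, fewer cells of a type and less RNA per cell cannot be told apart.

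Per kilobase of gene (FPKM), the output genes and nuclear receptors stood above the positive limb of the clock. Mean FPKM over the 16 libraries was 83.3 ± 71.3 (SD) for Dbp, 58.6 ± 40.6 for Nr1d1 and 43.7 ± 21.4 for Tef. It was 21.6 ± 12 for Per2, 16.9 ± 5.54 for Nr1d2, 10.3 ± 2.34 for Cry2 and 8.78 ± 5.60 for Per3. The lowest means were those of Cry1 (3.65 ± 1.93), Clock (2.46 ± 0.90) and Arntl (1.14 ± 1.40). For each of the 9 pairs of neighbours in this order the ranges over the libraries overlapped.

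**Figure D1:**
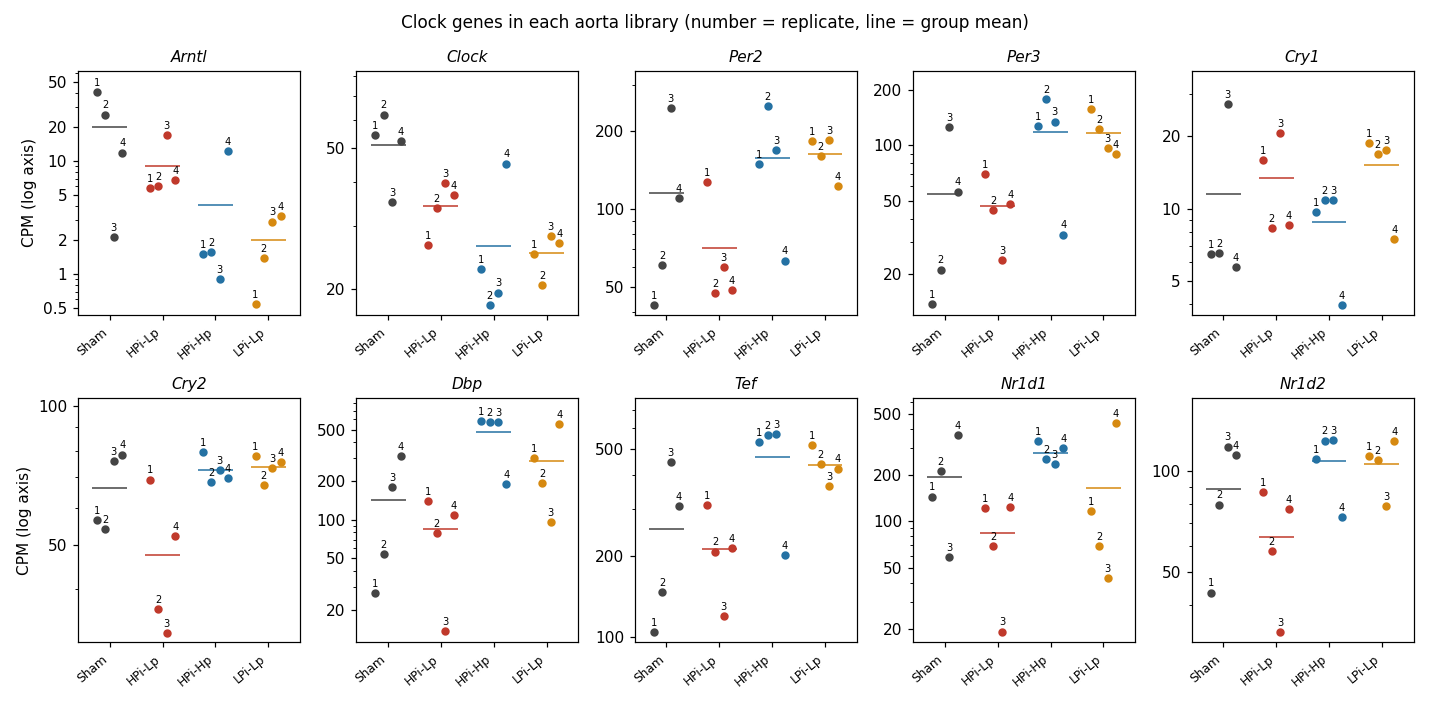
CPM of the 10 clock genes (log axis, a separate scale for each gene) in the 16 aorta libraries by group, with 1 point per mouse labelled by its replicate number and a line at the group mean. Arntl spans 0.54 to 40.7 CPM, 5/6 Nx-HPi-Hp replicate 4 lies apart from the other mice of its group for Arntl, Dbp and Tef, and Sham replicate 3 for Cry1.

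Arntl, which encodes the strongly rhythmic member of the activating dimer, showed the widest range of the 10 genes, from 0.54 to 40.7 CPM (75.1-fold). In Sham mice it stood at 40.7, 25.8, 2.12 and 11.9 CPM in replicates 1 to 4. The values were 5.80, 6.06, 17.1 and 6.84 CPM in 5/6 Nx-HPi-Lp mice. They were 1.51, 1.55, 0.90 and 12.4 CPM in 5/6 Nx-HPi-Hp mice and 0.54, 1.38, 2.91 and 3.24 CPM in 5/6 Nx-LPi-Lp mice. All 5/6 Nx-LPi-Lp libraries were below all 5/6 Nx-HPi-Lp libraries, whereas the Sham range alone covered 19.2-fold and overlapped every other group. Clock, the constant partner in many tissues, ranged only 3.46-fold. Its CPM was 54.3, 62.1, 35.2 and 52.3 in Sham mice, 26.6, 33.9, 39.7 and 36.8 in 5/6 Nx-HPi-Lp mice, 22.8, 18.0, 19.5 and 45.2 in 5/6 Nx-HPi-Hp mice and 25.1, 20.5, 28.2 and 26.8 in 5/6 Nx-LPi-Lp mice. For Clock, Sham mice and 5/6 Nx-LPi-Lp mice did not overlap. In both genes, 5/6 Nx-HPi-Hp replicate 4 was the highest of its group and Sham replicate 3 the lowest of its own.

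The repressors Per2 and Per3 ran the other way. Per2 stood at 42.8, 60.7, 245 and 110 CPM in Sham mice, 127, 47.5, 59.8 and 48.6 in 5/6 Nx-HPi-Lp mice, 148, 249, 168 and 63.3 in 5/6 Nx-HPi-Hp mice and 183, 160, 185 and 123 in 5/6 Nx-LPi-Lp mice. Per3 stood at 13.7, 21.2, 126 and 56.0 CPM in Sham mice, 69.7, 44.7, 23.9 and 47.9 in 5/6 Nx-HPi-Lp mice, 127, 178, 134 and 32.8 in 5/6 Nx-HPi-Hp mice and 157, 123, 96.0 and 89.3 in 5/6 Nx-LPi-Lp mice. Sham replicate 3, with the lowest Arntl of its group, had the highest Per2 and Per3 of its group, and 5/6 Nx-HPi-Hp replicate 4, with the highest Arntl, had the lowest. Sham mice alone covered 9.17 of the 13-fold range of Per3 and 5.73 of the 5.82-fold range of Per2. Per3 lies inside the span of Camta1 on the same strand. Only whole gene spans, introns included, were compared, and whether the genes share exons was not tested.

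The cryptochromes, which hold CLOCK and BMAL1 in check together with the PER proteins, differed from each other. Cry1 stood at 6.47, 6.56, 27.1 and 5.73 CPM in Sham mice, 15.9, 8.32, 20.6 and 8.51 in 5/6 Nx-HPi-Lp mice, 9.68, 10.9, 10.8 and 3.99 in 5/6 Nx-HPi-Hp mice and 18.7, 16.8, 17.5 and 7.47 in 5/6 Nx-LPi-Lp mice. In 3 of the 4 groups 1 mouse stood away from the rest for Cry1: Sham replicate 3 above, and replicate 4 below in the 5/6 Nx-HPi-Hp and also in the 5/6 Nx-LPi-Lp group. Cry2 had the narrowest range of the 10 genes (2.48-fold, 32.1 to 79.6 CPM). Its mean was 66.2 ± 12.7 CPM (SD, n = 4) in Sham mice, 47.4 ± 16.9 in 5/6 Nx-HPi-Lp mice, 72.5 ± 5.02 in 5/6 Nx-HPi-Hp mice and 73.6 ± 4.58 in 5/6 Nx-LPi-Lp mice.

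The nuclear receptors differed in how far they ranged. Nr1d1 stood at 145, 212, 58.7 and 365 CPM in Sham mice, 123, 69.0, 19.2 and 124 in 5/6 Nx-HPi-Lp mice, 333, 253, 237 and 299 in 5/6 Nx-HPi-Hp mice and 116, 69.2, 42.9 and 434 in 5/6 Nx-LPi-Lp mice. For Nr1d1, unlike Arntl, Per3, Dbp or Tef, 5/6 Nx-HPi-Hp replicate 4 sat inside the range of its own group, and all 5/6 Nx-HPi-Hp libraries were above all 5/6 Nx-HPi-Lp libraries. Nr1d2 ranged 3.74-fold, with a mean of 88.4 ± 34.4 CPM (SD, n = 4) in Sham mice, 63.8 ± 23.7 in 5/6 Nx-HPi-Lp mice, 107 ± 23.9 in 5/6 Nx-HPi-Hp mice and 105 ± 18.9 in 5/6 Nx-LPi-Lp mice. Nr1d1 shares 1075 bases with Thra on the opposite strand, and the strand setting of the counting is not given in the sources used here, so that reads from that stretch cannot be told apart.

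Among the output factors, Dbp varied 42.8-fold and Tef 5.49-fold. Dbp stood at 27.0, 54.1, 179 and 310 CPM in Sham mice, 138, 79.3, 13.6 and 109 in 5/6 Nx-HPi-Lp mice, 582, 575, 573 and 188 in 5/6 Nx-HPi-Hp mice and 300, 193, 95.2 and 551 in 5/6 Nx-LPi-Lp mice. Replicates 1 to 3 of the 5/6 Nx-HPi-Hp group lay within 573 to 582 CPM, and even the lowest library of that group, replicate 4, was above the highest 5/6 Nx-HPi-Lp library. Tef stood at 104, 147, 449 and 306 CPM in Sham mice, 310, 208, 119 and 214 in 5/6 Nx-HPi-Lp mice, 531, 565, 571 and 202 in 5/6 Nx-HPi-Hp mice and 520, 442, 366 and 424 in 5/6 Nx-LPi-Lp mice. All 5/6 Nx-LPi-Lp libraries were above all 5/6 Nx-HPi-Lp libraries for Tef. Dbp shares 737 bases with Sphk2 on the opposite strand.

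Because both members of a ratio are counted in the same library, the count of Dbp for each count of Arntl does not depend on the scaling of the libraries. It was 0.66, 2.09, 84.3 and 26.0 in Sham mice and 23.9, 13.1, 0.79 and 15.9 in 5/6 Nx-HPi-Lp mice. It was 386, 370, 637 and 15.2 in 5/6 Nx-HPi-Hp mice and 554, 139, 32.7 and 170 in 5/6 Nx-LPi-Lp mice. The ratio therefore spanned 127-fold among the Sham mice alone.

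**Figure D2:**
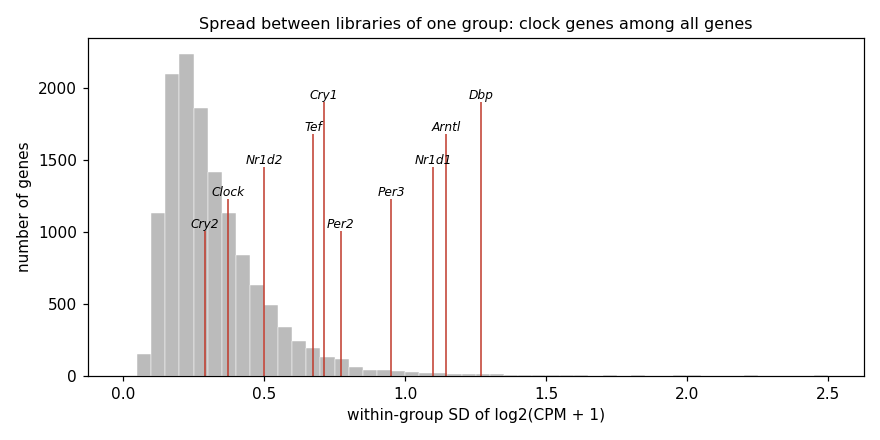
Histogram of the within-group SD of log2(CPM + 1) (12 degrees of freedom) for the 13378 genes that averaged 50 counts or more, with red lines at the 10 clock genes (line heights carry no meaning). Dbp, Arntl and Nr1d1 lie far to the right of the bulk of genes, and Cry2 lies within it.

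The clock genes varied more between mice of the same group than most genes of the aorta. The within-group SD of log2(CPM + 1), pooled over the 4 groups, was 1.27 for Dbp, 1.14 for Arntl, 1.10 for Nr1d1 and 0.95 for Per3. It was 0.77 for Per2, 0.71 for Cry1, 0.67 for Tef, 0.50 for Nr1d2, 0.37 for Clock and 0.29 for Cry2. Over the 13378 genes that averaged 50 counts or more the median was 0.28 and the 95th percentile 0.68. All 10 clock genes were above this median and 6 were above the 95th percentile. Among the Sham mice, where Arntl ranged 19.2-fold, the smooth muscle sum ranged 1.19-fold, the adipocyte sum 2.91-fold and, widest of the 9 marker lists, the lymphocyte sum 4.89-fold.

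**Figure D3:**
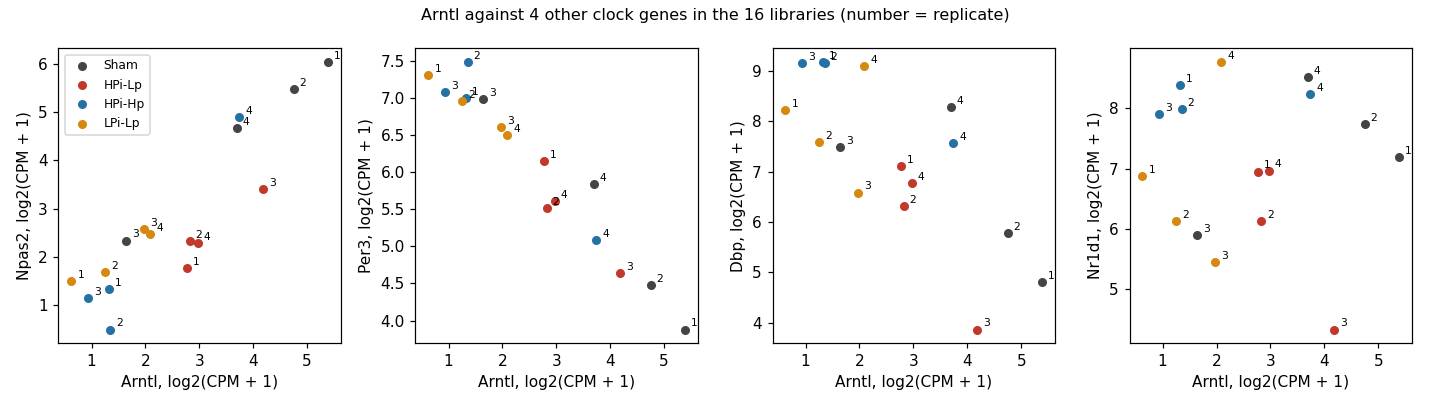
log2(CPM + 1) of Npas2, Per3, Dbp and Nr1d1 (vertical axes) against that of Arntl (horizontal axes) in the 16 libraries, coloured by group and labelled by replicate. Npas2 climbs with Arntl, Per3 falls along a narrow line (centred r = -0.96), Dbp falls more loosely and Nr1d1 shows no line.

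This variation was ordered. After each group's mean was subtracted from log2(CPM + 1), so that the differences between groups no longer entered, the correlation with Arntl over the 16 libraries was -0.96 for Per3 (Spearman's rho -0.86), -0.94 for Tef (rho -0.85), -0.82 for Per2 (rho -0.73) and -0.76 for Nr1d2 (rho -0.62). It was -0.68 for Dbp (rho -0.51), -0.66 for Cry1 (rho -0.57) and -0.47 for Cry2 (rho -0.48). Clock followed Arntl (r = 0.83, rho 0.87), and for Nr1d1 the value over the 16 libraries was near 0 (r = 0.12, rho 0.14). With 4 mice each, single groups were not read. Without the 2 libraries farthest from the median of Arntl, r was -0.93 for Per3, -0.90 for Tef, -0.68 for Dbp, 0.69 for Clock and -0.18 for Nr1d1, but only -0.30 for Cry1, whose relation rested on those libraries. These values are descriptions with no test, and the libraries share their scaling. Of the 45 pairs of clock genes, r was above 0.5 in 20 and below -0.5 in 13. Per3 and Tef kept closest together (r = 0.98), followed by Dbp and Nr1d2 (r = 0.94), while Cry1 and Nr1d1 opposed each other (r = -0.71).

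Set among all 13377 other genes that averaged 50 counts or more, genes of these clock genes or of the wider list below took the highest place in this ranking and the lowest 4. Npas2, which can replace CLOCK as the partner of BMAL1, had the highest correlation with Arntl of all (r = 0.95). Its level was 65.1, 43.4, 4.06 and 24.5 CPM in Sham mice and 28.8 CPM in 5/6 Nx-HPi-Hp replicate 4, against 0.41 to 9.67 CPM in the other 11 libraries. At the other end, Per3 was last, Hlf (a PAR bZIP factor related to DBP and TEF) was next to last with r = -0.96, and Tef and Tspan4 (r = -0.92) followed. The places between Npas2 and Clock, which took place 29 from the top, went to genes outside the clock lists. Usp2 took place 14, Per2 place 22, Ciart place 57 and Nr1d2 place 60 from the bottom. Dbp (place 238 from the bottom), Cry1 (311) and Cry2 (1318) stood farther in, and Nr1d1 took place 5835 from the top.

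Outside the clock lists, the genes most like Arntl were Dtx4 (r = 0.91), Tspan9 (0.91), Rassf3 (0.90), Eln (0.88), which encodes elastin, and Lmcd1 (0.87). The most opposed genes were Clca3a1 (r = -0.89), Gm48583 (-0.88), Tbkbp1 (-0.87), Cyp2e1 (-0.86), a drug-metabolizing cytochrome that adipose tissue expresses, and Mthfd1l (-0.85). Some cell type markers moved with Arntl as well: after the same centring, r was 0.60 for the smooth muscle sum and -0.75 for the adipocyte sum. For the other marker lists r was weaker, from -0.33 (endothelial cells) to 0.43 (fibroblasts), with 0.07 for macrophages. In each group the mouse with the highest Arntl had the lowest adipocyte sum of its group. These sums were 231 in Sham replicate 1, 2592 in 5/6 Nx-HPi-Lp replicate 3, 716 in 5/6 Nx-HPi-Hp replicate 4 and 1046 in 5/6 Nx-LPi-Lp replicate 4. Of these mice, 5/6 Nx-HPi-Hp replicate 4 (23251) and 5/6 Nx-LPi-Lp replicate 4 (17704) also had the highest smooth muscle sum of their groups. In 5/6 Nx-HPi-Hp replicate 4 the mitochondrial share of counts (9.50%) was also the lowest of its group. Without 5/6 Nx-HPi-Hp replicate 4, r with Arntl was -0.95 for Per3 and -0.91 for Tef. Leaving out 1 library cannot remove the tie to the adipocyte sum, which was seen in each group. The part of smooth muscle, adipocytes and the other cell types in these correlations was not tested.

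**Figure D4:**
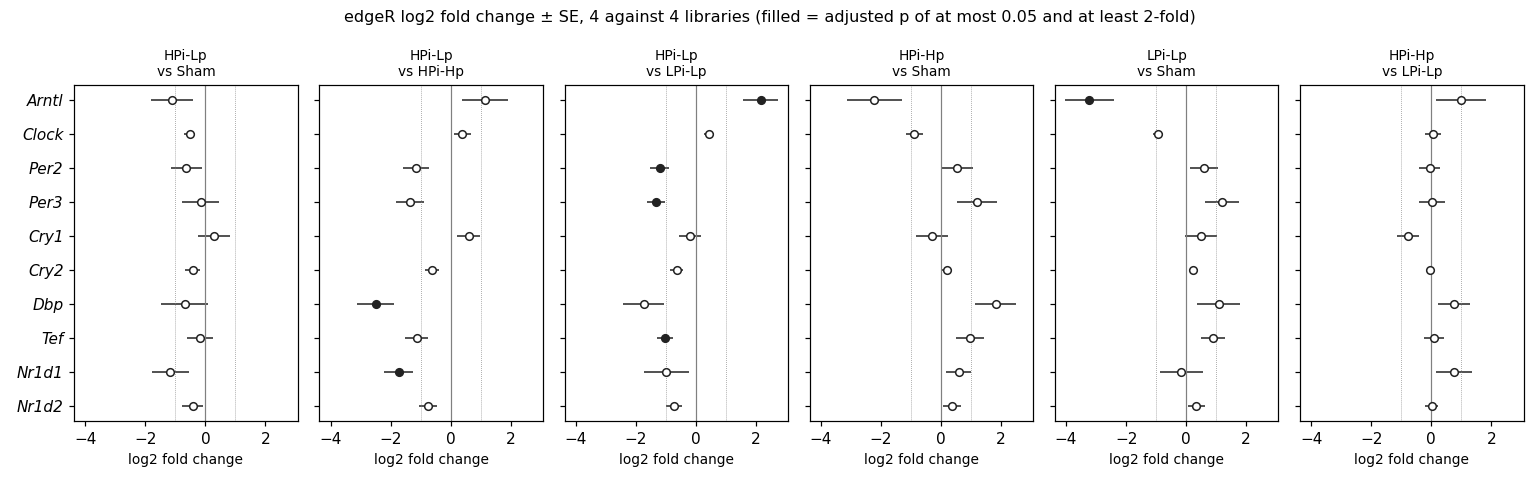
log2 fold change ± SE of the 10 clock genes (rows) in the 6 comparisons of groups (panels), from edgeR fits of 4 against 4 libraries, with dotted lines at 2-fold. Filled points mark the 7 calls, which are Dbp and Nr1d1 against 5/6 Nx-HPi-Hp, Arntl, Per2, Per3 and Tef against 5/6 Nx-LPi-Lp, and Arntl between 5/6 Nx-LPi-Lp and Sham.

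The groups were compared with edgeR's quasi-likelihood test, and a gene was called at a Benjamini-Hochberg adjusted p of at most 0.05 over all genes tested and a change of at least 2-fold. Each of the groups enters 3 of the 6 comparisons, so that these share libraries and are not independent of one another.

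Against Sham mice on the same diet, a comparison in which the surgery differs, none of the 10 clock genes was called in 5/6 Nx-HPi-Lp mice, where 22.2% of all 16513 genes tested were called. Clock alone passed the adjusted p (edgeR adjusted p = 0.041), with a log2 fold change of -0.52 ± 0.18 (SE) that did not reach 2-fold; 42.9% of all genes passed on the p alone. Arntl differed by -1.11 ± 0.70 on the log2 scale (adjusted p = 0.23, edgeR) and Nr1d1 by -1.17 ± 0.62 (adjusted p = 0.15). At an unadjusted p under 0.05 there was 1 clock gene, against 50.9% of all genes, and each of the 10 overlapped between the groups, where 43% of all genes did not. The median log2 fold change over the clock genes was -0.48, against -0.0027 over all genes. With Sham replicate 3 left out, Arntl and Cry1 were called, beside 21.2% of all genes. The smooth muscle, adipocyte, macrophage and fibroblast sums and the mitochondrial share did not overlap between these groups (above), and their part in these values was not tested.

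Against 5/6 Nx-HPi-Hp mice, which differ in dietary protein, the output factor Dbp and the receptor Nr1d1 were lower in 5/6 Nx-HPi-Lp mice. Dbp averaged 85.0 ± 53.4 CPM (SD, n = 4) against 479 ± 194 CPM, a log2 fold change of -2.49 ± 0.62 (edgeR adjusted p = 0.029), and Nr1d1 83.8 ± 50.1 against 281 ± 43.7 CPM, a log2 fold change of -1.73 ± 0.47 (adjusted p = 0.039). Neither gene overlapped between the groups, as was so for 20.4% of all genes. These 2 calls of 10 stand beside 8.12% of all genes called in either direction and 3.11% called lower. Per2 (log2 fold change -1.15 ± 0.44, adjusted p = 0.11), Per3 (-1.34 ± 0.47, adjusted p = 0.088) and Tef (-1.13 ± 0.37, adjusted p = 0.073) did not pass in the same edgeR fit. At an unadjusted p under 0.05 there were 7 clock genes, against 30.9% of all genes, and the median over the 10 genes was -0.94, against 0.0098 over all genes. No clock gene was called with 5/6 Nx-HPi-Lp replicate 2 or 4, or 5/6 Nx-HPi-Hp replicate 1, 2 or 3, left out, where 3.83 to 6.53% of all genes were. Without 5/6 Nx-HPi-Hp replicate 4 there were 5 (Arntl higher, and Per2, Per3, Dbp and Tef lower), beside 8.10% of all genes. Without 5/6 Nx-HPi-Lp replicate 1 there were 4 (Per2, Dbp, Tef and Nr1d1), beside 9.35%. Leaving out libraries moved the edgeR adjusted p of Dbp between 0.020 and 0.075 and that of Nr1d1 between 0.019 and 0.089. DESeq2 called 5 of the 10 genes at the same thresholds, and 2094 genes in all. A fit of all 16 libraries called Dbp alone, beside 2011 of all 17443 genes. In that fit the share among the clock genes was not above the background. The smooth muscle, macrophage and fibroblast sums of these groups did not overlap and the adipocyte sums did (above), and their part in the calls was not tested.

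Against 5/6 Nx-LPi-Lp mice, which differ in dietary phosphorus, the most clock genes were called, 4 of 10, where 11.9% of all genes were. Arntl was higher in 5/6 Nx-HPi-Lp mice (8.96 ± 5.47 against 2.02 ± 1.27 CPM; log2 fold change 2.16 ± 0.57, edgeR adjusted p = 0.029), a call that 7.9% of all genes shared in direction. Lower were Per2 (70.8 ± 38.1 against 163 ± 28.9 CPM; -1.20 ± 0.32, adjusted p = 0.029), Per3 (46.5 ± 18.7 against 116 ± 30.9 CPM; -1.32 ± 0.31, adjusted p = 0.018) and Tef (213 ± 78.0 against 438 ± 63.4 CPM; -1.04 ± 0.26, adjusted p = 0.024), against 3.98% of all genes called lower by edgeR. Of these, Arntl, Per3 and Tef did not overlap between the groups and Per2 did, in 5/6 Nx-HPi-Lp replicate 1; 24.7% of all genes tested did not overlap. Dbp (-1.74 ± 0.67, adjusted p = 0.095) did not pass in this edgeR fit. At an unadjusted p under 0.05 there were 8 clock genes, against 35.7% of all genes, and the median log2 fold change over the 10 was -0.85, against -0.016 over all genes. With all 16 libraries in a single edgeR fit none of them was called (adjusted p of 0.076 to 0.11), where 13.9% of all genes were. Tef fell short of 2-fold with total-count scaling (log2 fold change -0.97) and with mitochondrial genes left out (-0.98), and limma on log2(FPKM + 1) gave 0.76 for Arntl (adjusted p = 0.052). Leaving out 5/6 Nx-HPi-Lp replicate 4 ended each of these calls (adjusted p of 0.055 to 0.088 by edgeR), where 7.59% of all genes were called. Leaving out 5/6 Nx-HPi-Lp replicate 3 left Per3 alone, beside 11.3% of all genes. The calls that were left numbered 2 without 5/6 Nx-HPi-Lp replicate 2 or 5/6 Nx-LPi-Lp replicate 1 (Arntl and Per3) and without 5/6 Nx-LPi-Lp replicate 2 or 3 (Per3 and Tef). In these fits 7.63 to 10.4% of all genes were called. Here too the smooth muscle, macrophage and fibroblast sums did not overlap while the adipocyte sums did, and their part in these calls was not tested.

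The other nephrectomized groups were also set against Sham mice. In 5/6 Nx-LPi-Lp mice Arntl was lower (2.02 ± 1.27 against 20.1 ± 16.8 CPM; log2 fold change -3.23 ± 0.81, edgeR adjusted p = 0.015) and was the only clock gene called, against 10.9% of all genes in either direction and 2.08% lower. The groups overlapped for Arntl in Sham replicate 3. The smooth muscle, adipocyte and fibroblast sums and the mitochondrial share did not overlap between these groups. Nor did the brown adipocyte sums (313 to 668 in Sham and 1226 to 4739 in 5/6 Nx-LPi-Lp mice). The part of these differences in the call was not tested. Clock passed the adjusted p (-0.93 ± 0.17, edgeR adjusted p = 0.0048) but not 2-fold, where 31.8% of all genes passed on the p, and it did not overlap between the groups, as was so for 35.6% of all genes. Arntl was called with any 1 of the 8 libraries left out, but not by limma on log2(FPKM + 1) (adjusted p = 0.051). Without Sham replicate 3 there were 6 clock genes called, namely Arntl, Clock, Per2, Per3, Cry1 and Tef, beside 10.3% of all genes. In 5/6 Nx-HPi-Hp mice none of the 10 was called against Sham, where 12.2% of all genes were, and each overlapped between the groups, where 33.8% of all genes did not. By edgeR, Arntl differed by -2.22 ± 0.92 (adjusted p = 0.088), Dbp by 1.82 ± 0.68 (adjusted p = 0.064) and Clock by -0.89 ± 0.28 (adjusted p = 0.038). Here 4 genes were called without 5/6 Nx-HPi-Hp replicate 4 (Arntl, Clock, Dbp and Tef), where 19.2% of all genes were. There were 2 without Sham replicate 3 (Arntl and Clock, beside 9.32% of all genes) and 1 without Sham replicate 4 (Dbp, beside 9.89%).

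For 5/6 Nx-HPi-Hp against 5/6 Nx-LPi-Lp mice, which differ in both nutrients, edgeR called 0 of the 10 clock genes and 0 of all 15850 genes (0%). At an unadjusted p under 0.05 there were 0 clock genes and 1420 genes in all (8.96%), and none of the 10 was free of overlap between the groups, as 5.15% of all genes were. DESeq2 called 0 clock genes and 78 genes in all, and limma on log2(FPKM + 1) called 0 of either. Cry1 came nearest (8.83 ± 3.27 against 15.1 ± 5.16 CPM; log2 fold change -0.78 ± 0.37, adjusted p = 0.56 by edgeR).

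When any difference among the 4 groups was tested in a single edgeR fit of the 16 libraries, 4 of the 10 clock genes passed: Clock (adjusted p = 0.0094), Arntl (0.020), Dbp (0.037) and Cry2 (0.047). Over all 17443 genes 50.7% passed, so that the share among the clock genes was not above the background. Passing did not follow the within-group SD. The genes that passed had an SD of 0.29 (Cry2), 0.37 (Clock), 1.14 (Arntl) and 1.27 (Dbp). Nr1d1 (SD 1.10, adjusted p = 0.18 by edgeR), Tef (0.67) and Nr1d2 (0.50) were among those that did not pass. The count of clock genes that passed ran from 1 without Sham replicate 2 (41.4% of all genes) to 6 without 5/6 Nx-HPi-Hp replicate 4 (52.6%).

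**Figure D5:**
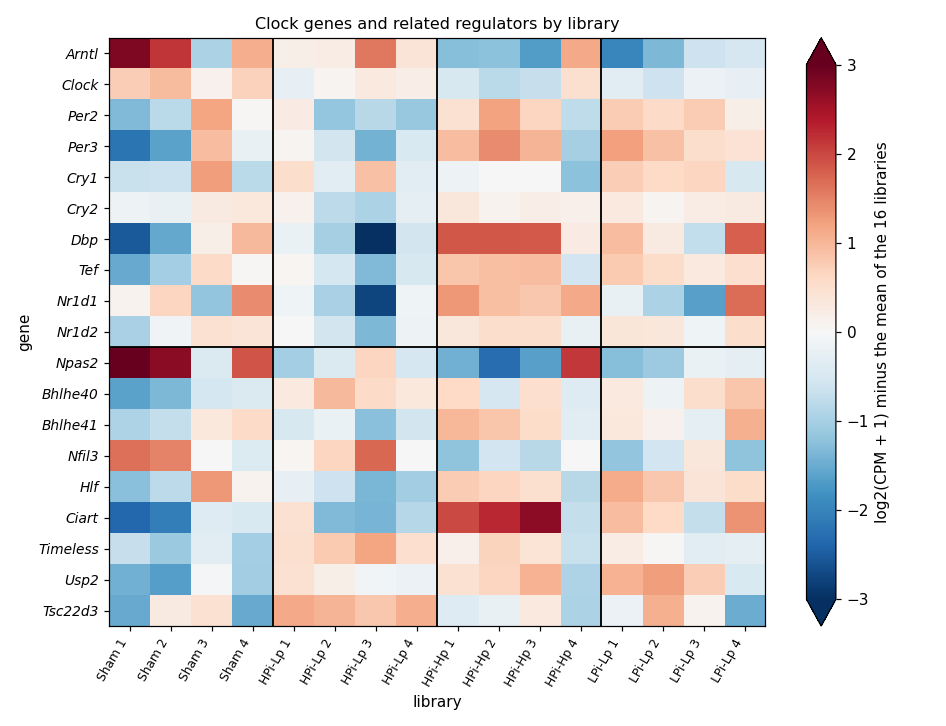
Heat map of log2(CPM + 1) minus the mean of the 16 libraries for the 10 clock genes (above the line) and 9 genes of the wider list called in at least 1 comparison (below), with libraries in columns by group and replicate. Columns Sham 1 and 2 show red Arntl, Npas2 and Nfil3 over blue Per3, Dbp and Ciart, and columns HPi-Hp 1 to 3 show the opposite.

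A wider list of 25 clock genes, namely other regulators, kinases and ubiquitin ligase parts, and rhythmic output genes, was counted alongside. Of the 24 tested against Sham mice, 5 were called in 5/6 Nx-HPi-Lp mice (4 higher and 1 lower), 5 in 5/6 Nx-HPi-Hp mice (4 higher and 1 lower) and 5 in 5/6 Nx-LPi-Lp mice (4 higher and 1 lower), beside the 22.2%, 12.2% and 10.9% of all genes given above. Of all genes, 15% were called higher and 7.18% lower than Sham in 5/6 Nx-HPi-Lp mice, 9.41% higher and 2.75% lower in 5/6 Nx-HPi-Hp mice and 8.79% higher and 2.08% lower in 5/6 Nx-LPi-Lp mice. Against 5/6 Nx-HPi-Hp mice 3 of 23 were called in 5/6 Nx-HPi-Lp mice (1 higher, as 5.01% of all genes were, and 2 lower) and against 5/6 Nx-LPi-Lp mice 1 of 24, and between the latter groups 0 of 24.

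Bhlhe40, an E-box repressor, and Usp2, a rhythmic deubiquitinase, were called higher than Sham in each of the nephrectomized groups. Bhlhe40 averaged 35.9 CPM in Sham mice, against 101 in 5/6 Nx-HPi-Lp mice (log2 fold change 1.54 ± 0.28, edgeR adjusted p = 0.0018), 74.7 in 5/6 Nx-HPi-Hp mice (1.13 ± 0.35, adjusted p = 0.034) and 90.8 in 5/6 Nx-LPi-Lp mice (1.42 ± 0.29, adjusted p = 0.0071). Usp2 averaged 12.5 CPM in Sham mice and 26.5, 34.0 and 42.4 CPM in the same order of groups. These comparisons share the Sham libraries, and the part of cell make-up in the calls of the wider list was not tested. Npas2 was lower than Sham (34.3 CPM) in 5/6 Nx-HPi-Lp mice (5.00 CPM; log2 fold change -2.70 ± 0.71, edgeR adjusted p = 0.013) and in 5/6 Nx-LPi-Lp mice (3.39 CPM; -3.25 ± 0.71, adjusted p = 0.0089). Ciart, a repressor of CLOCK and BMAL1, was higher than Sham (5.77 CPM) in 5/6 Nx-HPi-Hp mice (54.5 CPM; 3.32 ± 0.76, adjusted p = 0.014) and in 5/6 Nx-LPi-Lp mice (22.1 CPM; 2.03 ± 0.60, adjusted p = 0.029), by edgeR.

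Timeless, a partner of the clock proteins that also acts at replication forks, was higher than Sham in 5/6 Nx-HPi-Lp mice (18.6 against 5.82 CPM) and in 5/6 Nx-HPi-Hp mice (12.4 CPM). Nfil3, which represses through D-boxes, was lower in 5/6 Nx-HPi-Hp than in Sham mice (9.72 against 29.8 CPM). Tsc22d3, which glucocorticoids induce, was higher in 5/6 Nx-HPi-Lp mice (156 CPM) than in Sham mice (62.5 CPM). The log2 fold change was 1.38 ± 0.43 (edgeR adjusted p = 0.028). It was also higher than in 5/6 Nx-HPi-Hp mice (64.2 CPM), with a log2 fold change of 1.28 ± 0.25 (edgeR adjusted p = 0.014). Tsc22d3 did not overlap between the groups in either case, as was so for 43% and 20.4% of all genes. In 5/6 Nx-HPi-Lp mice, Bhlhe41 (18.7 against 43.2 CPM) and Ciart (8.52 against 54.5 CPM) were lower than in 5/6 Nx-HPi-Hp mice, and Hlf was lower than in 5/6 Nx-LPi-Lp mice (16.1 against 47.3 CPM; -1.56 ± 0.27, adjusted p = 0.0059 by edgeR).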

How the data were processed

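Total RNA of 16 mouse aortas was sequenced. Per the labels and methods, the authors aligned reads with HISAT2 to mm10, counted them per gene with featureCounts (1.5.0-p3) and deposited counts and FPKM. Whether counting used the strand is not given in the sources used here, and the labels name both a directional and a non-directional library protocol. The deposited FPKM had already been scaled between libraries. Counts were analysed as deposited; each library holds 13659525 to 57276915 counts, and intervals of single counts were not computed.

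Groups followed the labels. Levels are CPM after TMM scaling, and log values are log2(CPM + 1). The 6 pairs of groups were tested with the quasi-likelihood test of edgeR (4.0.16, R 4.3.3) on their 8 libraries, after filterByExpr, with Benjamini-Hochberg adjustment over all genes tested. Calls required at least a 2-fold change together with an adjusted p no higher than 0.05. Alternatives used other scalings, DESeq2 (1.42.0), limma (3.58.1) with trend on the log2 of the deposited FPKM plus 1 or 0.1 (mean FPKM above 0.5), other count filters, no fold threshold, a replicate block, thinned libraries, no mitochondrial genes, all 16 libraries in a fit, and each library left out. The members and lists were chosen with earlier results of these data known. All members are named, as are genes of the wider list that were called in at least 1 comparison and the 5 genes on neither list most like and the 5 most opposed to Arntl; other genes of the wider list appear for their place in that ranking. A called gene of the wider list enters its counts but is not reported here. Scripts were tested on simulated counts. Each library is 1 mouse, so that p-values measure the spread between these mice. No pair of libraries within a group agreed within sampling noise (lowest chi-square per gene 20.0); pairs across groups were not compared.

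The replicate numbers of the labels did not pair the libraries: over 24 pairs of same-numbered libraries the correlation of deviations from the group means ran from -0.28 to 0.54, and 4 exceeded 0.1.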

Additional observations from a re-analysis of the deposited data

Results flagged for a closer look

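In 7 of the 40 combinations of a clock gene and a group, 1 mouse lay so far from the other 3 that its gap to the nearest of them exceeded Dixon's limit at the 95% level. Chance flags about 1 in 20 such groups when values are independent and normally distributed. Here the combinations share mice and the genes vary together, so that the number of flags cannot be set against that rate. Arntl was 12.4 CPM in 5/6 Nx-HPi-Hp replicate 4, against 0.90 to 1.55 CPM in the other mice of its group, and the same mouse had 188 CPM of Dbp (others 573 to 582) and 202 CPM of Tef (others 531 to 571). In 5/6 Nx-HPi-Lp mice, Arntl was 17.1 CPM in replicate 3 (others 5.80 to 6.84) and Per2 was 127 CPM in replicate 1 (others 47.5 to 59.8). Cry1 was 27.1 CPM in Sham replicate 3 (others 5.73 to 6.56) and 7.47 CPM in 5/6 Nx-LPi-Lp replicate 4 (others 16.8 to 18.7).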

How the results depend on the processing

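Counts of called clock genes moved with the setting, and the cause was not tested. Between 5/6 Nx-HPi-Lp and Sham mice the count was 0, and 1 with no fold threshold (Clock, beside 42.9% of all genes). For 5/6 Nx-HPi-Lp against 5/6 Nx-HPi-Hp mice it was 2, beside 1315 of all genes. It was 1 with total-count scaling (1201 of all genes) and 1 with all 16 libraries in a fit (2011). It was 5 by DESeq2 (2094 of all genes) and 5 without a count filter (1553). For 5/6 Nx-HPi-Lp against 5/6 Nx-LPi-Lp mice it was 4, and 3 with total-count scaling or without mitochondrial genes (Tef lost), 3 by limma on log2(FPKM + 1) (Arntl lost) and 0 with all 16 libraries in a fit. Between 5/6 Nx-HPi-Hp and Sham mice it was 0, and 1 with total-count scaling (11.7% of all genes) or with no fold threshold (31.4%). It was 1 by limma with a pseudocount of 1 (5.96%) or 0.1 (10.4%), and 2 without a count filter (6.94%). Between 5/6 Nx-LPi-Lp and Sham mice it was 1, and 2 with total-count scaling (11.8% of all genes) or no fold threshold (31.8%). It was 0 by limma on log2(FPKM + 1) (5.95%). With total-count scaling the median log2 fold change of all genes against Sham was -0.14 in 5/6 Nx-HPi-Lp mice (in place of -0.0027), -0.19 in 5/6 Nx-HPi-Hp mice (in place of 0.018) and -0.22 in 5/6 Nx-LPi-Lp mice (in place of 0.020). With each library left out in turn, the counts ran in the order above from 0 to 2, 0 to 5, 0 to 4, 0 to 4 and 1 to 6, and the count differing among the 4 groups from 1 to 6. It stayed 0 for 5/6 Nx-HPi-Hp against 5/6 Nx-LPi-Lp mice.

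The replicate numbers did not pair the libraries. With the replicate number as a block, the counts of clock genes in the same order were 1 (Nr1d1), 0, 5, 0 and 0, and those of all genes 3349, 371, 1271, 1557 and 1448, in place of 3666, 1315, 1931, 1932 and 1748. For 5/6 Nx-HPi-Hp against 5/6 Nx-LPi-Lp mice the block called 10 genes, DESeq2 78 and the fit without a count filter 12, in place of 0. In the same block, Per3 against Sham in 5/6 Nx-HPi-Lp mice was 0.29, and for 5/6 Nx-HPi-Hp against 5/6 Nx-LPi-Lp mice Clock was -0.038, Per3 -0.18 and Tef -0.013 on the log2 scale.

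Of the log2 fold changes of single genes under the other settings, 617 kept their direction and side of the threshold, 13 fell below it, 14 newly passed it and 14 changed sign. Per3 between 5/6 Nx-HPi-Lp and Sham mice was 0.16 and 0.26 by limma with pseudocounts of 1 and 0.1. Cry2 between 5/6 Nx-HPi-Hp and Sham mice was -0.0077 with total-count scaling. For 5/6 Nx-HPi-Hp against 5/6 Nx-LPi-Lp mice, limma with a pseudocount of 1 gave -0.0032 for Clock, -0.14 for Per3 and -0.0062 for Tef. With 0.1 it gave -0.025, -0.18 and -0.0091, and Per3 was -0.0031 without a count filter. Levels by other scalings, chosen after seeing the data, moved by less than the spread between mice in 80 of 80 cases. The TMM factors ran only from 0.90 to 1.08, whereas the SD of Arntl was 61.1 to 136% of its group mean. For genes with so wide a spread this comparison could hardly have come out otherwise.

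With libraries left out, 405 values kept their direction and side of the threshold, 26 fell below it, 20 newly passed it and 29 changed sign. Between 5/6 Nx-HPi-Lp and Sham mice Per2 ran from -1.07 to 0.020, Per3 from -0.50 to 0.64, Dbp from -1.05 to 0.019 and Tef from -0.46 to 0.22. For 5/6 Nx-HPi-Lp against 5/6 Nx-LPi-Lp mice Cry1 ran from -0.47 to 0.0042 and Nr1d1 from -1.28 to 0.16. Cry1 between 5/6 Nx-HPi-Hp and Sham mice ran from -0.53 to 0.57, and Nr1d1 between 5/6 Nx-LPi-Lp and Sham mice from -1.27 to 0.33. For 5/6 Nx-HPi-Hp against 5/6 Nx-LPi-Lp mice the ranges were -0.60 to 1.32 for Arntl, -0.32 to 0.18 for Clock, -0.37 to 0.22 for Per2, -0.26 to 0.33 for Per3, -0.078 to 0.00070 for Cry2, -0.022 to 0.35 for Tef and -0.10 to 0.17 for Nr1d2. The correlation of Arntl with Cry1 ran from -0.83 to -0.38 and that with Nr1d1 from -0.24 to 0.34. At 10 counts in its lowest library, Arntl is the clock gene that depth limits most.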
